A study of Rattus norvegicus with 3 samples.

Results

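Pyruvate dehydrogenase kinases, pyruvate dehydrogenase phosphatases and uncoupling proteins were followed as 8 genes (Pdk1, Pdk2, Pdk3, Pdk4, Pdp1, Pdp2, Ucp2 and Ucp3) in rat tibialis anterior muscle. They were chosen by gene symbol, and each was read by the probe set listed for that symbol alone. All 8 had 1 probe set each among the 14506 genes of the array, and all 8 were above the level used to leave out dim genes (a mean of 5.34 on the log2 scale), as were 10879 genes in all.

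The muscles came from male Wistar rats, 11 weeks old, that had eaten a high fat diet (45% of energy) for 3 weeks. After 2 weeks of the diet 150 µg of plasmid DNA was electroporated into the muscle, and tissue was taken 8 days later. The groups were Plin5 (OXPAT, in a pcDNA3.1 plasmid under the CMV promoter), Plin2 (ADRP, in a pENTR plasmid under the CMV promoter) and empty vector (pcDNA3.1 with no insert). Perilipins, the products of these genes, coat lipid droplets. Each group was 1 array of RNA pooled from 6 rats, so no spread between animals was measured, no test was possible and every difference below describes a pair of arrays. Insert and plasmid backbone differed together on the Plin2 array and cannot be told apart. The CMV promoter is not restricted to muscle fibres, so the labels do not say which cells made the introduced protein.

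The pyruvate dehydrogenase complex turns pyruvate into acetyl-CoA inside mitochondria and so commits carbohydrate to oxidation. The kinases (PDK) phosphorylate the complex and switch it off, and the phosphatases (PDP) remove the phosphate and switch it on again. In skeletal muscle Pdk2 and Pdk4 are the isoforms best known, and Pdk4 is induced by fasting and fat feeding. Uncoupling proteins are carriers of the inner mitochondrial membrane. Ucp3 is found mainly in skeletal muscle and brown fat, and Ucp2 is widely expressed, immune cells included.

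On the Plin2 array the genes of this group went in opposite directions. Pdk3 and Ucp2 were higher than on the empty vector array by 1.88-fold and 1.78-fold, and Ucp3 and Pdp1 were lower by 1.64-fold and 1.62-fold. On the Plin5 array none of the 8 differed from the empty vector by 1.5-fold (0.58 log2 units), and the widest gap was that of Ucp2, −0.28. Of all 10879 genes compared, 1.64% passed 1.5-fold on the Plin5 array, 0.221% higher and 1.42% lower, beside 0 of the 8. On the Plin2 array 14.6% did so, 8.84% higher and 5.8% lower, beside 2 higher and 2 lower of the 8. Both sets of differences use the same empty vector array. The median difference of the 8 was 0.03 on the Plin5 array and −0.40 on the Plin2 array, against 0.00 over all genes compared in both cases. On the Plin5 array that 0.00 falls among the 40.2% of genes compared whose values exactly equal those of the empty vector.

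**Figure D1:**
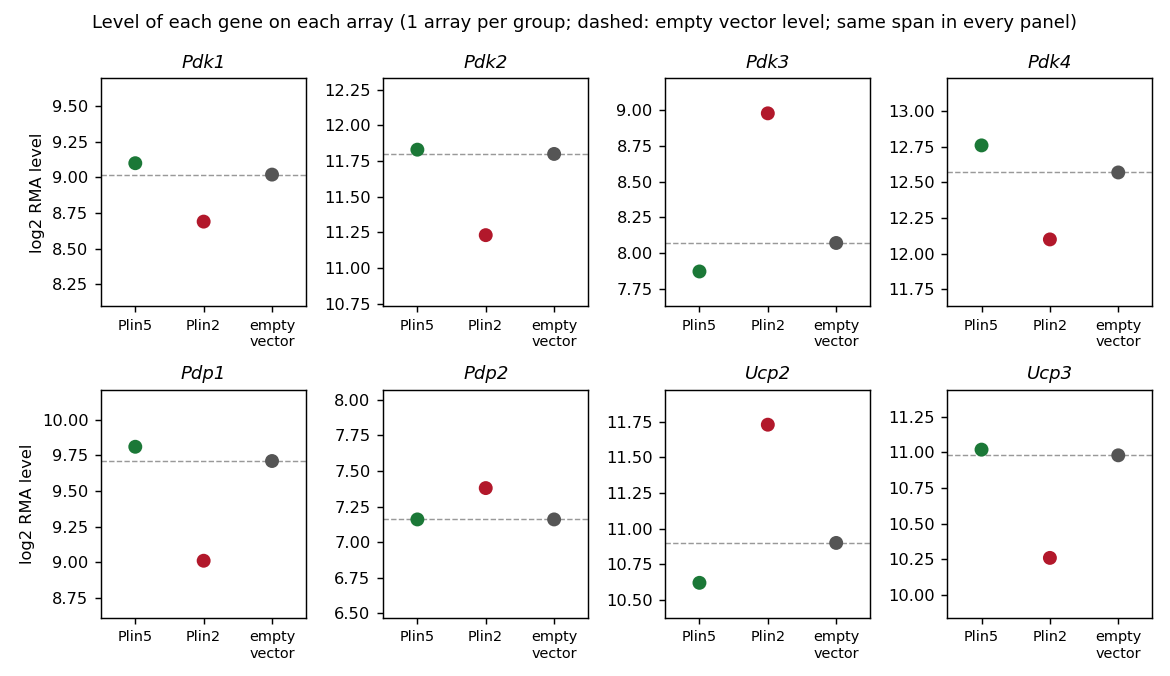
Level of each of the 8 genes (log2 RMA, vertical axis) on the Plin5, Plin2 and empty vector arrays (points, 1 array each), with the empty vector level dashed. Pdk1, Pdk2, Pdk4, Pdp1 and Ucp3 have their lowest point on the Plin2 array, and Pdk3, Pdp2 and Ucp2 their highest. Levels of different genes come from different probes and are not comparable.

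Each introduced perilipin gene read highest on the array labelled with it. Plin5 stood at 8.30 on the Plin5 array, 6.79 on the Plin2 array and 7.52 on the empty vector array, and Plin2 at 10.08, 10.70 and 9.99 in the same order. Against the empty vector, Plin5 was 0.78 higher on the Plin5 array, where 0.129% of all genes were at least as high. Plin2 was 0.71 higher on the Plin2 array, where 6.34% of all genes were at least as high. Whether the higher Plin2 value came from the plasmid was not tested. The muscle label was checked with 6 defining fibre genes (Acta1, Ckm, Mb, Des, Ttn and Pygm). All read far above the dim level on every array. Their lowest value was 13.05, that of Ttn on the Plin2 array (empty vector 13.35).

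Among the kinases, Pdk4, the isoform that responds to fasting and fat, stood at 12.76 on the Plin5 array, 12.10 on the Plin2 array and 12.57 on the empty vector array. The Plin5 value was the highest and the Plin2 value the lowest. Against the empty vector the difference was 0.19 on the Plin5 array (1.14-fold) and −0.47 on the Plin2 array (1.39-fold lower), both under 1.5-fold. A difference of 0.19 or more upward was found for 3.24% of all genes on the Plin5 array. On the Plin2 array 8.35% of all genes were at least as low as Pdk4. Pdk2, the isoform present in most tissues, stood at 11.83 on the Plin5 array, 11.23 on the Plin2 array and 11.80 on the empty vector array. Its Plin5 and empty vector values were 0.02 apart. Its Plin2 value was lower by 0.57 on the log2 scale, just short of 1.5-fold, and went past it after median-centring of the arrays (−0.62). As deposited, 6.1% of all genes were at least as low on the Plin2 array. Pdk1, a kinase that is a known target of hypoxia-inducible factor, followed the same order, with 9.10 on the Plin5 array, 8.69 on the Plin2 array and 9.02 on the empty vector array. Its differences from the empty vector were 0.08 and −0.33.

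Pdk3 went against the other kinases. It stood at 7.87 on the Plin5 array, 8.98 on the Plin2 array and 8.07 on the empty vector array. The Plin2 value was the highest, 0.91 above the empty vector, and 3.47% of all genes were at least as far above it. The Plin5 value was the lowest, at −0.20. The differences of the 4 kinases on the Plin2 array therefore spanned 1.48 log2 units, between 0.91 for Pdk3 and −0.57 for Pdk2, against a span of 0.40 on the Plin5 array.

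The start regions of Pdk3 and Pdk4, the kinases that lay farthest apart on the Plin5 array and in opposite directions on the Plin2 array, are shown for comparison. Each is the 250 bases before the annotated gene start, 5′ to 3′ on the gene's own strand, from RefSeq (build GRCr8): Pdk3 at chrX:62547372-62547621, minus strand, and Pdk4 at chr4:34568330-34568579, minus strand. Capitals mark matches, on either strand, to any of the motifs searched. These were the nuclear receptor half-site AGGTCA (also part of the next 2), the ERR site TNAAGGTCA, the PPAR-RXR direct repeat (AGGTCA, any 1 base, AGGTCA) and the FOXO site GTAAACA. The others were the hypoxia element core in the form ACGTG, the E-box in the form CANCTG, the GC box GGGCGG, the CCAAT box CCAAT and the TATA box TATAAA. Other forms of the hypoxia element core and the E-box were not searched, so they are neither marked nor counted.
Pdk3: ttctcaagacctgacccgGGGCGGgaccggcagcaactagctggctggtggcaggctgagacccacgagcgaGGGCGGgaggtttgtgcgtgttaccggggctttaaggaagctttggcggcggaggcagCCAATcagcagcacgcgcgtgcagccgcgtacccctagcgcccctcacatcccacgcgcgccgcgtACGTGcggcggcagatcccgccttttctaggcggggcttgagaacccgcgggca
Pdk4: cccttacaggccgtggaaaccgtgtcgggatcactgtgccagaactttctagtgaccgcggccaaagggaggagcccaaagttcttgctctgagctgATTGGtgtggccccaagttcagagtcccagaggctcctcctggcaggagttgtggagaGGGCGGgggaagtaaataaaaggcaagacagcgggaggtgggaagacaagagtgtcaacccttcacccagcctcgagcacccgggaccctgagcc

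Pdk3 held 2 GC boxes, 1 CCAAT box and 1 hypoxia element core, the last at 54 bases before the start. Pdk4 held 1 GC box and 1 CCAAT box. GC content was 68.0% for Pdk3 and 59.2% for Pdk4, against a median of 51.2% over 33469 promoter windows of that length. GC boxes were found in 30.5%, CCAAT boxes in 34.0% and the hypoxia element core in 16.6% of those windows. Each of them was found in 3 of the 6 members searched. Pdk2 and Ucp3, which were lower than the empty vector on the Plin2 array, held the hypoxia element core as Pdk3 did. None of the 6 members with a promoter entry (all but Pdp1 and Pdp2) held the direct repeat, which 0.0508% of the windows held, the ERR site (1.04%), the FOXO site (3.21%) or the TATA box (12.9%). These are matches of letters in a short window and say nothing of binding.

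Of the phosphatases, Pdp1, the calcium-stimulated isoform that is abundant in muscle, had 9.81 on the Plin5 array, 9.01 on the Plin2 array and 9.71 on the empty vector array. The Plin2 array was lower by 0.70 on the log2 scale, and 3.97% of all genes were at least as low. The Plin5 array was 0.10 higher. Pdp2, the isoform that does not respond to calcium, read 7.16 on the Plin5 array, 7.38 on the Plin2 array and 7.16 on the empty vector array. The Plin5 and empty vector values were exactly equal, as they were for 40.2% of the genes compared; the cause was not tested. The Plin2 value was 0.22 above them (1.16-fold), and 21.7% of all genes were at least as high. The phosphatases thus also lay on opposite sides of the empty vector on that array, 0.91 apart, with only Pdp1 past 1.5-fold. Pdpr, the regulatory subunit of the phosphatase, had 10.87 on the Plin5 array, 10.18 on the Plin2 array and 10.74 on the empty vector array, differences of 0.14 and −0.56.

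Ucp3, the muscle uncoupling protein gene, had 11.02 on the Plin5 array, 10.26 on the Plin2 array and 10.98 on the empty vector array. The Plin5 and empty vector arrays were 0.04 apart, and the Plin2 array was lower by 0.71, where 3.81% of all genes were at least as low. Ucp2 had 10.62 on the Plin5 array, 11.73 on the Plin2 array and 10.90 on the empty vector array. Its order was the reverse of that of Ucp3: the Plin2 value was the highest (0.83 above the empty vector, with 4.45% of genes at least as high) and the Plin5 value the lowest (−0.28, with 5.34% of genes at least as low). The differences of the uncoupling protein genes on the Plin2 array were 1.54 log2 units apart. Ucp1, the gene of brown fat, lay under the dim level with 4.31 on all 3 arrays.

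Ucp3 and Ucp2 are neighbours on chromosome 1, on the same strand and with 0 protein-coding genes between them in the RefSeq annotation. Their start regions are shown because neighbouring genes of one family had opposite differences on the Plin2 array. They are the 250 bases before the start of Ucp3 (chr1:164227660-164227909, plus strand) and of Ucp2 (chr1:164251123-164251372, plus strand), in GRCr8 from RefSeq, with the same motifs in capitals.
Ucp3: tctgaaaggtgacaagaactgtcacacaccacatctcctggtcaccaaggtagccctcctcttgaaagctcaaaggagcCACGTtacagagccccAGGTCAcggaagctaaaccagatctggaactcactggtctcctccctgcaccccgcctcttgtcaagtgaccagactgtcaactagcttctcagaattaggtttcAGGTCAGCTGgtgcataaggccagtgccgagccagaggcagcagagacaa
Ucp2: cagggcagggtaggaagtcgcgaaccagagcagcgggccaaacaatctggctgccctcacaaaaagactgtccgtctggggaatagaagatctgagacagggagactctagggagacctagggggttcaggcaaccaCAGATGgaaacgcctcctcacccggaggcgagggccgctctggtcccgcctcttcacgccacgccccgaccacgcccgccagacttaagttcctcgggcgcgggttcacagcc

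Ucp3 held the nuclear receptor half-site AGGTCA at 155 and at 50 bases before the start, the second overlapping an E-box at 46, and 1 hypoxia element core. The half-site was present in 14.1% and the E-box in 43.3% of all windows. Ucp3 was the only one of the 6 members searched with the half-site. Ucp2 held 1 E-box of the form searched and no other motif of the list as spelled above. GC content was 53.6% for Ucp3 and 62.8% for Ucp2.

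**Figure D2:**
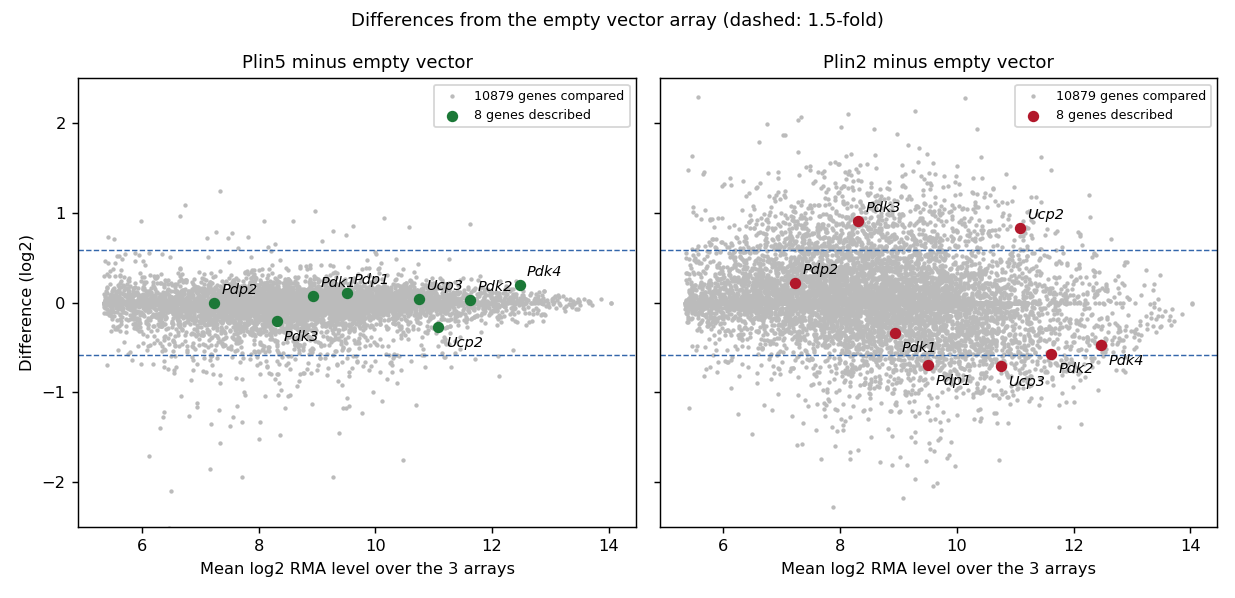
Difference from the empty vector array (log2, vertical axis) against mean level (log2, horizontal axis) for 10879 genes (grey), with the 8 genes coloured and named and 1.5-fold dashed; 2 genes on the Plin5 panel and 3 on the Plin2 panel lie outside the axis. The 8 lie within the dashed lines on the left, and Pdk3, Ucp2, Pdp1 and Ucp3 lie outside them on the right.

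Against the Plin2 array, the Plin5 array was higher for Pdp1 (0.80), Ucp3 (0.76), Pdk4 (0.67), Pdk2 (0.59) and Pdk1 (0.41), and lower for Pdk3 (−1.11), Ucp2 (−1.11) and Pdp2 (−0.22). Of these, 4 passed 1.5-fold upward and 2 downward, beside 18.4% of all genes (7.19% higher and 11.3% lower, or 9.3% and 9.49% after median-centring). This comparison is the gap between the Plin5 and Plin2 differences already given and adds no array. Pdk2 no longer passed 1.5-fold after quantile normalization (0.55, leaving 3 higher and 2 lower), and neither Pdk2 (0.46) nor Pdk4 (0.50) passed it after a loess correction for level, which left 2 higher and 2 lower.

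The kinases and phosphatases act on the pyruvate dehydrogenase complex. Of the 5 genes of its subunits, 3 were lower by at least 1.5-fold on the Plin2 array, beside 5.8% of all genes. The median difference of the 5 was −0.74. Pdha1, the subunit that is phosphorylated, had 11.60 on the Plin5 array, 10.91 on the Plin2 array and 11.48 on the empty vector array. Its difference was −0.57 on the Plin2 array and 0.12 on the Plin5 array. Pdhx, which anchors the Dld subunit in the complex, stood at −0.51 on the Plin2 array and 0.00 on the Plin5 array. The 3 that passed 1.5-fold on the Plin2 array were Dlat (−0.79), which carries the acetyl group, Dld (−0.76), which reoxidises the lipoyl arm, and Pdhb (−0.74), the partner of Pdha1. No subunit passed 1.5-fold on the Plin5 array, beside 1.64% of all genes, and the subunit median there was 0.18. Bckdk, the related kinase of the branched-chain ketoacid dehydrogenase, stood at 0.07 on the Plin5 array and −0.27 on the Plin2 array, and Ppm1k, the phosphatase of that complex, at 0.25 and −0.75.

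Of 12 genes of pyruvate and lactate handling, 6 were lower by at least 1.5-fold on the Plin2 array (median −0.63). None of the 12 was higher by that amount, beside 5.8% lower and 8.84% higher of all genes. The 6 included Pc (−0.85) and Gpt (−0.77), which use pyruvate in other ways. Ldha, the muscle-type lactate dehydrogenase, was not among them (−0.15). The lowest were the lactate exporter Slc16a3 (−1.38) and the heart-type lactate dehydrogenase Ldhb (−0.96). The highest were the monocarboxylate carrier Slc16a7 (0.11) and Bsg (0.02), a chaperone of such carriers. The mitochondrial pyruvate carrier genes Mpc1 and Mpc2 stood at −0.86 and −0.93. None of the 12 passed 1.5-fold on the Plin5 array (median 0.04), beside 1.64% of all genes. Ldhb (0.47) and Mpc2 (0.20) were the highest, and Gpt2 (−0.17), which exchanges pyruvate and alanine, and Slc16a7 (−0.09) the lowest.

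**Figure D3:**
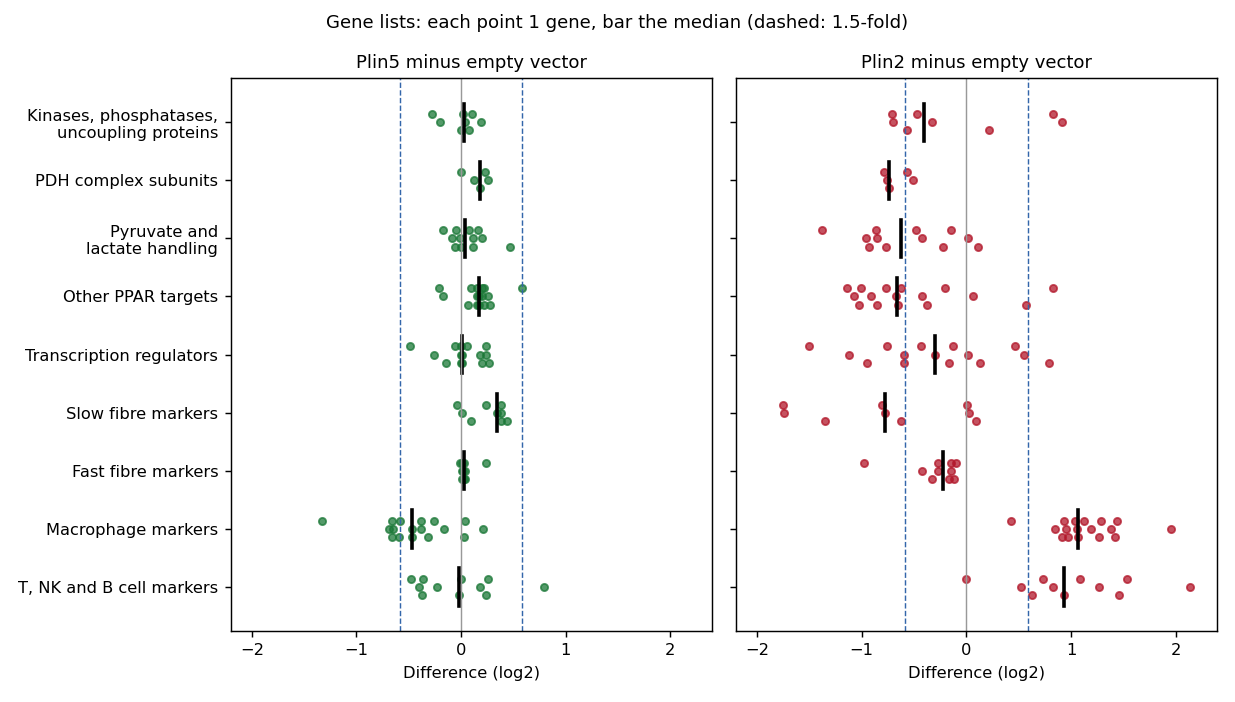
Differences from the empty vector array (log2, horizontal axis) by gene list, each point 1 gene past the dim level and each bar a list median, with 1.5-fold dashed. On the Plin2 array the complex subunits lie between −0.79 and −0.51 and the macrophage markers between 0.43 and 1.96, while the 8 genes lie on both sides of 0.

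Transcription factors and coactivators known to act on Pdk4 or Ucp3 were measured for 15 of 16 genes listed. On the Plin2 array 6 were lower and 1 higher by at least 1.5-fold (median −0.30), beside 5.8% and 8.84% of all genes. Ppara, the receptor that drives fatty acid genes, was lowest (−1.50), then Esrrg (−1.12). Hif1a, the hypoxia factor, was highest (0.79), then Pparg, the receptor of fat cells (0.55). Foxo1, which activates Pdk4 in fasting, stood at 9.20 on the Plin5 array, 9.22 on the Plin2 array and 9.20 on the empty vector array. None of the 15 passed 1.5-fold on the Plin5 array (median 0.01), beside 1.64% of all genes. Ppargc1a (0.27) and Ppara (0.24) were the highest and Pparg (−0.49) and Foxo3 (−0.26) the lowest. Other PPAR target genes, without the 8, had 10 of 16 lower and 1 higher by 1.5-fold on the Plin2 array (median −0.66). The shares of all genes were 5.8% and 8.84% there. Among the 16, the order was as follows. The lowest were Fabp3 (−1.14), a fatty acid binding protein, and Acadm (−1.07), which oxidises medium-chain fatty acids. Angptl4 (0.83), which inhibits lipoprotein lipase, and Cpt1a (0.57), the liver-type carnitine transferase, were the highest. None of the 16 passed 1.5-fold on the Plin5 array, and the median was 0.17. Angptl4 (0.58) and Cd36 (0.28) were the highest, and Fgf21 (−0.21) and Cpt1a (−0.17) the lowest.

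Markers of some other cell types differed on the same arrays. Of all genes compared, 8.84% were higher and 5.8% lower by 1.5-fold on the Plin2 array. On the Plin5 array the shares were 0.221% and 1.42%. On the Plin2 array 16 of 17 macrophage markers passed 1.5-fold upward (median 1.07), and their summed signal on a linear scale was 209% of that on the empty vector array. On the Plin5 array 6 of the 17 were lower by that amount (median −0.47), with a summed signal of 78.7% of the empty vector. Ucp2 and Pdk3 were higher by 1.5-fold on the Plin2 array as well, and stood at −0.28 and −0.20 on the Plin5 array. Of 11 lymphocyte and natural killer cell markers, 9 were higher by 1.5-fold on the Plin2 array (summed signal 200% of the empty vector), against 1 higher on the Plin5 array (95.5%). Slow fibre markers were lower by 1.5-fold for 6 of 9 genes on the Plin2 array (median −0.78), where Pdp1 and Ucp3 were lower by that amount too and Pdk2 stood at −0.57 and Pdk4 at −0.47, and had a median of 0.34 on the Plin5 array. Fast fibre markers had 1 of 10 lower by 1.5-fold on the Plin2 array (Myh2, −0.98; median −0.22) and 0 on the Plin5 array (median 0.02). The defining fibre genes had medians of 0.02 on the Plin5 array and −0.10 on the Plin2 array. Against the empty vector no endothelial (6 genes), fibroblast (6) or adipocyte (5) marker passed 1.5-fold on either array, with medians on the Plin2 array of 0.03, 0.18 and 0.00. Values on the Plin2 and empty vector arrays were exactly equal for 3 of the adipocyte markers, which sets their median, and for 2 endothelial ones. The other adipocyte markers were Cfd (0.47 on the Plin2 array and −0.35 on the Plin5 array) and Retn (−0.04 and 0.04). All 6 neutrophil markers lay under the dim level. The part of these cells in the differences of the 8 genes was not tested, and in pooled whole muscle fewer cells of a type and less RNA per cell cannot be told apart.

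For each of the 6 members that passed 1.5-fold in any comparison, the 3 genes with the nearest pair of differences from the empty vector were found, over the 3 arrays. Nearest to Ucp3 was Nrap (0.04 on the Plin5 array and −0.71 on the Plin2 array, at a distance of 0.0028 log2 units), a protein of the muscle fibre's ends, then Bnip1 and Dynll2. Nearest to Pdp1 were Fbxw5, Aldh1l1 and Entpd5, to Pdk2 Taco1, Filip1 and Hhatl, and to Pdk4 Hdac2, Slc30a3 and Slc1a1. Nearest to Pdk3 were Gsap (−0.21 and 0.91), Atp8b4 and Tcirg1, a subunit of the proton pump. Nearest to Ucp2 were Tead2 (−0.28 and 0.84), Tubb2a and Slc25a24, a mitochondrial carrier. Each match rests on only 2 differences per gene.

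**Figure D4:**
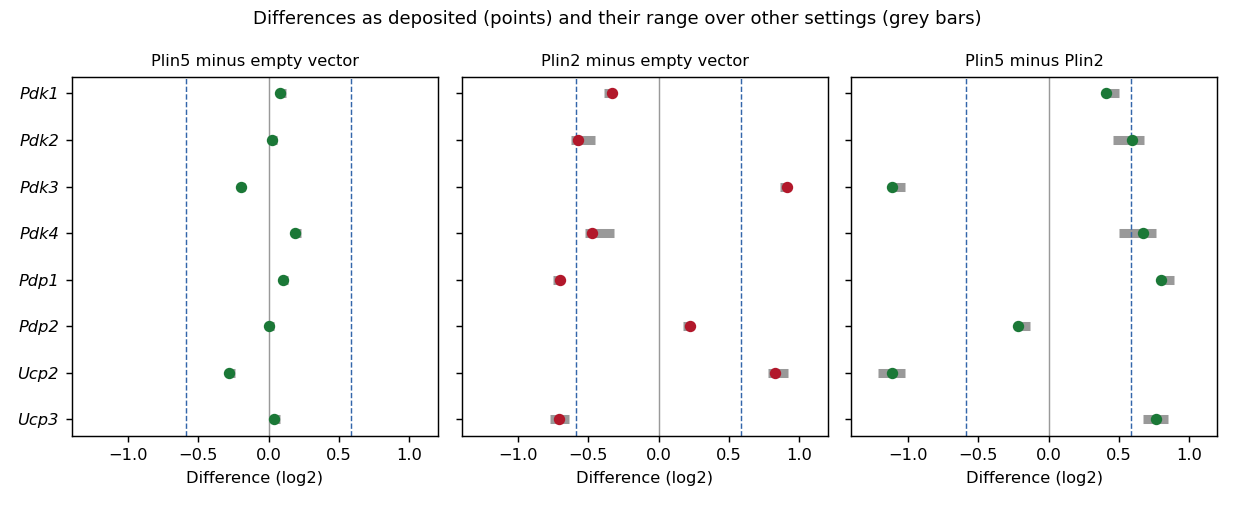
Difference of each of the 8 genes (log2, horizontal axis) as deposited (points) and its range over the 6 other filters, scalings and probe set rules (grey bars) in the 3 comparisons, with 1.5-fold dashed. Pdk2 crosses the dashed line in both comparisons with the Plin2 array and Pdk4 in the Plin5 minus Plin2 comparison, and no bar spans values on both sides of 0.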

How the data were processed

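The values were log2 expression levels as deposited, made by the authors with RMA per the submitters' processing notes. RMA corrects background, quantile-normalizes arrays and summarises each probe set. Its version, the genome build and the chip description are not stated in these sources. Nor is the log base, and log2 was taken because RMA returns it and the values lie in its range. Per the labels' protocols, RNA with an integrity number above 8 was pooled from 6 rats per group and 100 ng was labelled. The sham-treated other leg was not analysed here.

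The platform annotation gave 1 gene symbol to 15310 of the 29214 probe sets and several to 323, and did not list 13581. The brightest probe set per symbol was kept (527 genes had more than 1), and genes with a mean under the 25th percentile (5.34) were left out. Array medians were 6.37 (Plin5), 6.40 (Plin2) and 6.38 (empty vector). The deposited values were exactly equal on all 3 arrays for 38.7% of probe sets, and bright genes can be compressed. The number of arrays limits precision.

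With 1 array per group, differences of log2 values were described and counted at 1.5-fold, without a test. The counting code was checked on simulated differences with a spread made much smaller than that of these data. That check says nothing of how the counts vary here. Members and gene lists were chosen with earlier results of these data known. In lists other than those of cell type markers, genes are named where a list has at most 6 measured genes. From the longer of these lists the 2 highest and 2 lowest were named. Marker lists are given as counts and medians, with only some genes named. Mpc1, Mpc2, Pc, Gpt, Ldha and Foxo1 were named after their values were seen. Neighbouring patterns are the smallest Euclidean distances, without symbols that start with ENSR, LOC, Mir, Olr, RGD, Snor or Vom. Promoter sequences are from RefSeq (GRCr8). Alternatives covered the fold, the dim filter, centring, quantile normalization, loess (span 0.3) and averaged probe sets. Fits and plots used statsmodels 0.14.6, matplotlib 3.10.9, pandas 2.3.3 and numpy 2.4.6 under Python 3.11.15.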

Additional observations from a re-analysis of the deposited data

How the results depend on the processing

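Other filters, scalings and probe set rules gave 141 values for the differences of the 8 genes. None turned its direction (Pdp2, at 0.00 on the Plin5 array, reached 0.04 after median-centring), and 4 moved by over 0.1, all under the loess correction (Pdk2 and Pdk4 in both comparisons with the Plin2 array); the largest move was 0.17. Pdp2 lay under a dim filter set at the median and had no value there. With a 1.2-fold threshold 1 of the 8 genes passed on the Plin5 array, lower than the empty vector, beside 1.52% higher and 5.71% lower of all genes. On the Plin2 array 7 passed it, 2 higher and 5 lower, beside 19.4% higher and 15.5% lower. With a 2-fold threshold 0 passed in Plin2 minus empty vector, beside 2.5% higher and 1.31% lower of all genes. At that threshold 2 passed in Plin5 minus Plin2, both lower, beside 1.98% higher and 5.17% lower. Of 60 summary values under alternatives, 56 stayed within 1.5 times the count or 0.1 of the median; the exceptions are these 4 counts. No paired analysis was possible because each group had 1 array of pooled RNA, and for the same reason no array could be left out.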

Other observations

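Of the other carriers listed beside the uncoupling proteins, the adenine nucleotide translocase genes went opposite ways on the Plin2 array. Slc25a4, the translocase of muscle and heart, had 13.29 on the Plin5 array, 12.72 on the Plin2 array and 13.21 on the empty vector array. Slc25a5, the translocase of dividing cells, had 11.23 on the Plin5 array, 11.83 on the Plin2 array and 11.23 on the empty vector array, a difference of 0.60 on the Plin2 array. Slc25a27 stood within 0.06 on all arrays, and Slc25a14 lay under the dim level.

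Hypoxia response genes were also split on the Plin2 array (median −0.18). By at least 1.5-fold 2 of 12 were higher and 4 lower, beside 8.84% and 5.8% of all genes. The glucose transporter Slc2a1 (1.27) and Ndrg1 (0.97) were the highest. The lowest were the growth factor Vegfa, at 9.58 on the Plin2 array and 10.58 on the empty vector array, and the oxygen sensor Egln1 (−0.91). On the Plin5 array none of the 12 passed 1.5-fold (median 0.10), beside 1.64% of all genes. Among the 12, Egln1 (0.42) and Vegfa (0.26) were the highest there and Ndrg1 (−0.38) and Adm (−0.21) the lowest. Of the genes that make the lipoyl group of the complex, Lias stood at 0.02 on the Plin5 array and −0.48 on the Plin2 array, Lipt1 at −0.01 and −0.12, and Lipt2 at 0.02 and 0.00.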
